A study of Mus musculus with 8 samples.

Results

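The transcripts of p53 and of 9 genes known as its targets were followed in mouse lung tumour nodules. The 10 genes were taken by symbol from the deposited count table: Trp53, Cdkn1a, Mdm2, Ccng1, Trp53inp1, Perp, Sesn1, Aen, Zmat3 and Phlda3. They are 10 of 52459 symbols in the table and 10 of the 14085 that had enough counts to be tested. The study has 8 libraries in 4 groups of 2: the combination of anti-PD-1 antibody with JQ1, JQ1 alone, anti-PD-1 alone, and vehicle. JQ1 is a small molecule that keeps BET proteins, readers of acetylated histones, from binding chromatin, and the antibody blocks PD-1, a receptor that restrains T cells. All 4 groups, vehicle included, are nodules of the same genetically engineered model, whose label includes Trp53, on a mixed background. The sources used here do not give the Trp53 allele, the way it is altered, the age of the mice, or the dose and length of treatment. Counts are per gene, so they do not show from which exons or which allele a Trp53 read came. Replicate numbers are only names, and the p-values reflect a spread between libraries that may in part be technical.

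The p53 protein is a transcription factor that stress such as DNA damage stabilises. Its abundance is set mainly by degradation of the protein through the ubiquitin ligase MDM2, which p53 itself induces, so the level of the Trp53 transcript is a weak guide to p53 activity. Target genes stop the cell cycle, promote cell death, restrain growth signalling or feed back on p53, and each also has inputs other than p53. Loss of p53 is a common step in lung adenocarcinoma. A nodule holds tumour cells beside normal lung, stromal and immune cells, which keep their own p53 unless the allele is deleted throughout the animal. Neither p53 protein nor its binding to DNA was measured here, and in bulk tissue fewer cells of a type and less RNA per cell cannot be told apart.

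p53 binds DNA as a tetramer, at elements made of a pair of 10-base units, or decamers. A decamer has 3 purines, then a C and a G on either side of 2 A or T bases, then 3 pyrimidines. RefSeq promoter windows on GRCm38.p6, each reaching from 250 bases before a start site to 50 after it, were at hand for 7 of the 10 genes, in 10 windows. The p53 response element decamer, searched on both strands, was found in 7 of these 10 windows and in 8.36% of 32851 windows of all genes. The 10 windows belong to 6 genes with a match and to Phlda3 with none, and the 2 Aen windows overlap and share their match. The matches are shown because they are the p53-related sequence of the genes described below. They run 5′ to 3′ with the 4-base core in capitals, and each match is given once per gene and site:
Trp53: ggaCTTGccc
Cdkn1a, first: ggaCTAGctt
Cdkn1a, second: gaaCATGtct
Mdm2: gaaCTTGcct
Ccng1: gggCAAGcct
Sesn1: aagCTTGttt
Aen: gggCTTGtcc
A match describes letters in a window and does not show that p53 binds there. Cdkn1a was the only one of the 7 genes with a full element, which is 2 decamers with 0 to 13 bases between them. Full elements were found in 24 of the 32851 windows, or 0.0731%. The Cdkn1a element lies before the upstream of 2 start sites, which is 2790 bases before the downstream one. The 2 decamers that met the pattern span positions -73 to -64 and -51 to -42 from the upstream start, with 12 bases between them. The bases directly after the second decamer, tgacatgttc, miss the pattern only at their first base, a T in place of a purine. The search therefore did not mark them, and which of these units p53 uses was not tested. The 250 bases before this start, at chr17:29090729-29090978 on the plus strand, are printed with both decamers in capitals, since this is the one window with a full element:
Cdkn1a, upstream start: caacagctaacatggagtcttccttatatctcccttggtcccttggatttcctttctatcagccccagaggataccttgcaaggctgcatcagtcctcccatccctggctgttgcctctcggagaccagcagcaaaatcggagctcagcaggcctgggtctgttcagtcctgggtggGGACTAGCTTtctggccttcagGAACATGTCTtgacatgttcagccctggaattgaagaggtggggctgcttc
The Mdm2 window, at chr10:117710759-117711008 on the minus strand, is printed with its decamer in capitals because Mdm2 is a feedback gene with a call below. That call set all libraries with JQ1 against all without it, and it was lost under several alternative fits. For JQ1 alone against vehicle Mdm2 was not called. The p53-responsive promoter of Mdm2 is known to lie in its first intron, which this window does not cover:
Mdm2: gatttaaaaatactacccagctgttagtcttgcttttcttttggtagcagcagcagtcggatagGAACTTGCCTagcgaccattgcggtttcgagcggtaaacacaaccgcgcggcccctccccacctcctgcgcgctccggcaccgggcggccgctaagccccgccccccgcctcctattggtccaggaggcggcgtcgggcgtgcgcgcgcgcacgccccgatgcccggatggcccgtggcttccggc

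Combination replicate 1 was the shallowest library at 2719816 counts and vehicle replicate 2 the deepest at 15224108, so a level of 1 CPM (the count scaled to a fixed library total) stands for 2.38 counts in one and 17.4 in the other. CPM are scaled by library total and TMM factor, and differences as log2 fold changes with their standard error (SE). A gene is called when its adjusted p from edgeR's quasi-likelihood test is under 0.05. Ribosomal RNA took 46.0% and 52.5% of the counts in the combination libraries, 35% and 27.7% in the JQ1 libraries, 23.5% and 24.2% in the anti-PD-1 libraries, and 23.7% and 21.8% in the vehicle libraries. By Xist and Y-linked counts, replicate 1 of the combination and of JQ1 and replicate 2 of anti-PD-1 were female and the other 5 libraries male, so each of these 3 groups holds different mice, which is not known for vehicle. Combination replicate 2 stands apart for several of the 10 genes, and results that rest on it are given with and without it. Tumour epithelial markers (Epcam, Cdh1, Krt8, Krt18, Krt19, Cldn4 and Nkx2-1) were present in all 8 libraries, and none of the 7 was at 0 in any.

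Trp53 itself was low in every library. It had 4.63 and 2.14 CPM in the combination libraries, 3.57 and 3.57 CPM in the JQ1 libraries, 2.10 and 2.16 CPM in the anti-PD-1 libraries, and 1.99 and 2.75 CPM in the vehicle libraries. These rest on 11 and 13 reads in the combination libraries, 34 and 41 with JQ1, 30 and 23 with anti-PD-1, and 26 and 48 with vehicle. JQ1 had the highest mean and anti-PD-1 the lowest, and each group overlapped the next in this order. Both JQ1 libraries were nevertheless above all 4 libraries without JQ1, of which the highest had 2.75 CPM. Over all genes, 26.3% had both JQ1 libraries above both vehicle libraries, and the share above all 4 was not counted. The 2 combination libraries lie on both sides of vehicle, and their exact 95% Poisson intervals, which cover counting error only, were 2.31 to 8.28 CPM and 1.14 to 3.66 CPM, against 2.03 to 3.65 CPM in vehicle replicate 2. The log2 difference was 0.42 (SE 0.53, adjusted p = 0.638) for the combination against vehicle, with a 95% interval from -0.76 to 1.60, and -0.16 without combination replicate 1. With the ribosomal RNA share in the fit it was 2.26 and did not pass. For JQ1 against vehicle it was 0.58 (SE 0.49, adjusted p = 0.657), and for anti-PD-1 against vehicle -0.16 (SE 0.50, adjusted p = 1). A change of Trp53 RNA was therefore not detectable with these counts and 2 libraries a group, and the interval for the combination reaches from a decrease to an increase. The target values that follow stand beside a Trp53 transcript whose change has this uncertainty, and they do not by themselves report p53 activity.

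**Figure D1:**
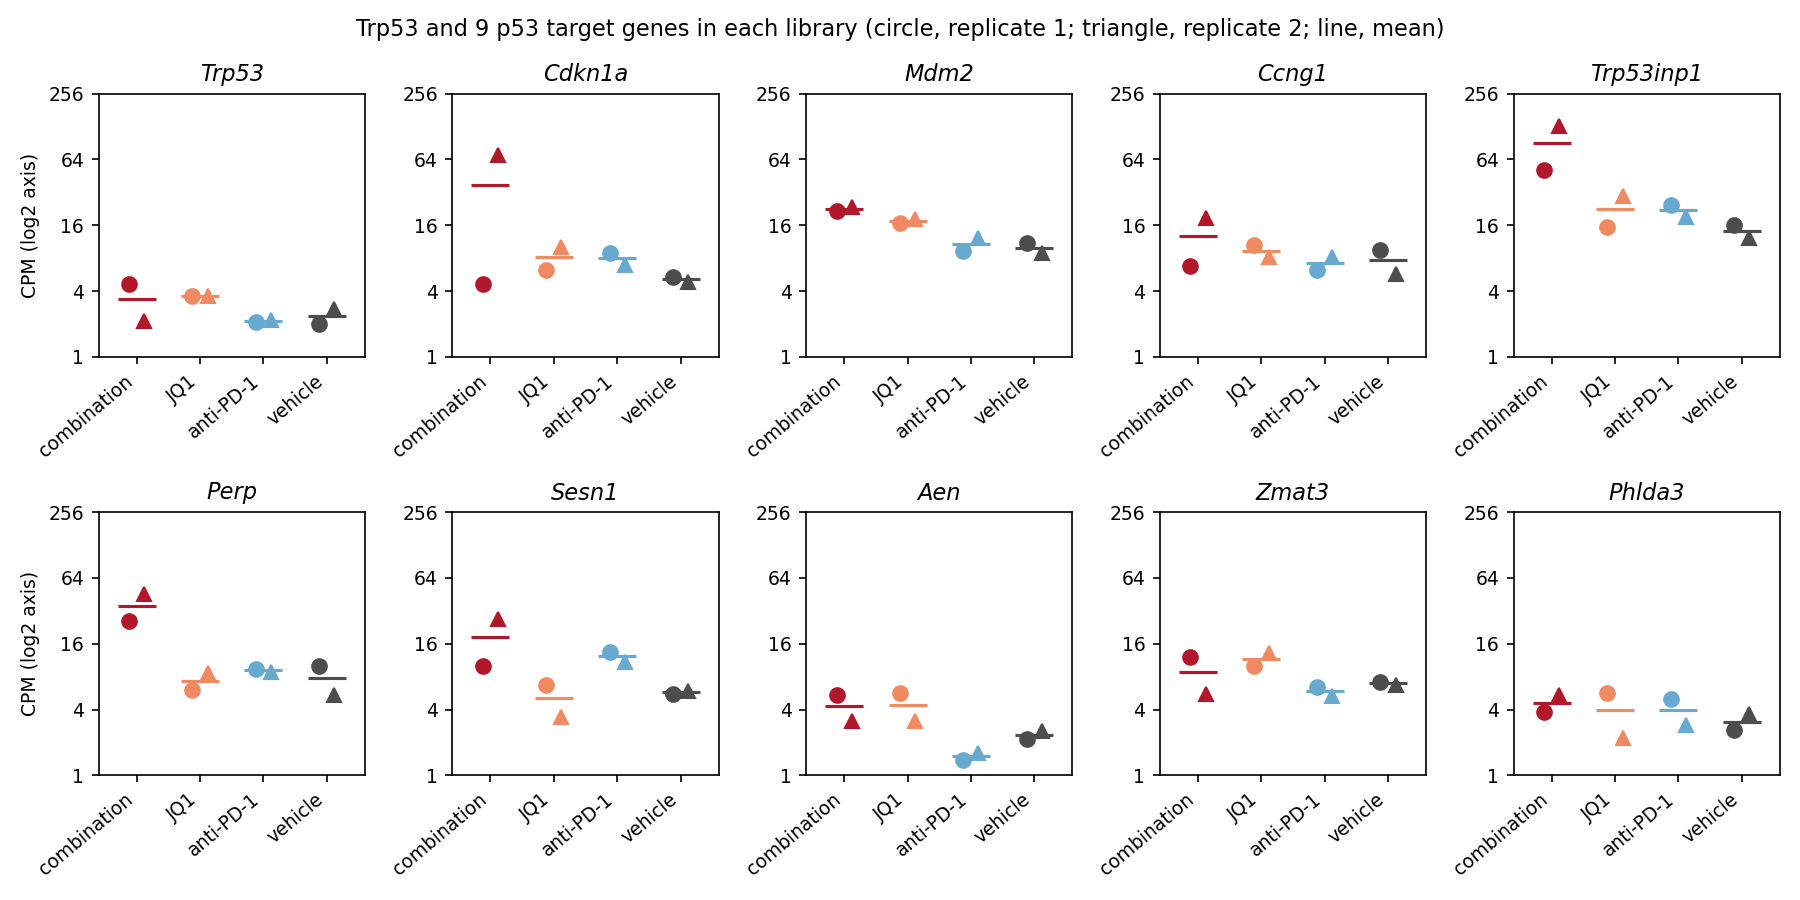
Level of each of the 10 genes in CPM, on a log axis, in each of the 8 libraries, 1 panel a gene, with groups from combination to vehicle. Points are libraries and lines group means; Trp53 lies between 1.99 and 4.63 CPM in all of them, while Cdkn1a has 1 library at 70.0 CPM and the other 7 between 4.63 and 10.02 CPM.

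Mdm2 encodes the ubiquitin ligase that degrades p53. Its transcript was at 21.5 and 23.6 CPM in the combination libraries, 16.7 and 18.4 CPM in the JQ1 libraries, 9.36 and 12.2 CPM in the anti-PD-1 libraries, and 11.1 and 8.84 CPM in the vehicle libraries. All 4 libraries with JQ1 were above all 4 without it, a placing that 10.2% of all genes shared. The replicates of each group lay close together. Taken over both backgrounds (combination and JQ1 against anti-PD-1 and vehicle), Mdm2 rose by 0.94 on the log2 scale (SE 0.23, adjusted p = 0.0374). It lost this call when any 1 library other than combination replicate 1 was left out, at a difference of 0.84 to 1.03. The call was also lost with a sex term (adjusted p = 0.0501) and with the ribosomal RNA share in the fit (0.76). For the combination against vehicle the difference was 1.18 (SE 0.33, adjusted p = 0.0603), which did not pass, with 1.01 to 1.33 over the libraries left out in turn. For JQ1 against vehicle it was 0.82 (SE 0.32, adjusted p = 0.452). Ccng1, cyclin G1, whose product acts on MDM2 through a phosphatase, had 6.73 and 18.8 CPM in the combination libraries, against 9.55 and 5.74 CPM in the vehicle libraries. The groups overlapped, and its log2 difference of 0.79 (SE 0.49) had an adjusted p of 0.314.

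Cdkn1a encodes p21, the inhibitor of cyclin-dependent kinases through which p53 arrests the cell cycle. It had 4.63 and 70.0 CPM in the combination libraries, 6.19 and 10.02 CPM in the JQ1 libraries, 8.94 and 6.95 CPM in the anti-PD-1 libraries, and 5.42 and 4.82 CPM in the vehicle libraries. Combination replicate 2, with 425 reads, is far above the other 7 libraries, while combination replicate 1, with 11 reads, is below both vehicle libraries. The log2 difference for the combination against vehicle was 2.90 (SE 0.94, adjusted p = 0.102), which did not pass. It was -0.17 without combination replicate 2 and 3.77 without combination replicate 1. In the same 2 libraries Trp53 had 2.14 CPM where Cdkn1a was high and 4.63 CPM where it was low. For JQ1 against vehicle the difference was 0.67 (SE 0.90) and for anti-PD-1 against vehicle 0.64 (SE 0.90). In both all treated libraries were above vehicle, a placing shared by 26.3% and 14.4% of all genes.

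Trp53inp1 and Perp were the genes that rose in the combination. Trp53inp1 encodes a stress protein that promotes p53 phosphorylation and autophagy, and Perp a tetraspan membrane protein of desmosomes that also takes part in p53-dependent cell death. Trp53inp1 had 51.3 and 129.5 CPM in the combination libraries, 15.4 and 29.4 CPM in the JQ1 libraries, 24.7 and 19.1 CPM in the anti-PD-1 libraries, and 16.1 and 12.2 CPM in the vehicle libraries. Both combination libraries were above all 6 others. The share of all genes so placed was not counted, but 29.5% had both combination libraries above both vehicle libraries. The log2 difference of Trp53inp1 against vehicle was 2.69 (SE 0.48, adjusted p = 0.0261). Perp had 25.7 and 45.2 CPM in the combination libraries, 6.08 and 8.63 CPM in the JQ1 libraries, 9.43 and 8.83 CPM in the anti-PD-1 libraries, and 10.1 and 5.39 CPM in the vehicle libraries. Here too both combination libraries were above all 6 others, and the remaining 3 groups overlapped. The log2 difference of Perp against vehicle was 2.21 (SE 0.43, adjusted p = 0.0303).

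These 2 calls are 2 of the 10 genes, against a background of 4.8% of all 14085 genes called in either direction and 2.44% that rose. Both were lost without combination replicate 2, at log2 differences of 1.84 for Trp53inp1 (adjusted p = 0.0953) and 1.71 for Perp (adjusted p = 0.127). Both were also lost without either vehicle library, at 2.48 to 2.89 for Trp53inp1 and 1.81 to 2.71 for Perp, where 19 and 7 genes in all were called, against 676 with all libraries. The ribosomal RNA share was 27.7% to 52.5% in the libraries with JQ1 and 21.8% to 24.2% in those without it. With this share in the fit the differences were 2.03 (adjusted p = 0.817) and 1.28 (0.866), and 2 genes in all were called. Perp also lost its call with only the libraries compared. Both rises were past the threshold without combination replicate 1.

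Sesn1 encodes a sestrin, which restrains mTORC1 when amino acids are short. It had 10.1 and 26.7 CPM in the combination libraries, 6.71 and 3.40 CPM in the JQ1 libraries, 13.6 and 10.99 CPM in the anti-PD-1 libraries, and 5.5 and 5.97 CPM in the vehicle libraries. The 4 libraries with the antibody were all above the 4 without it, which no other of the 10 genes showed and which 1.36% of all genes showed. The log2 difference for anti-PD-1 over both backgrounds was 1.5 (SE 0.35), and the adjusted p of 0.229 did not pass. It was -0.04 with the ribosomal RNA share in the fit. For the combination against vehicle it was 1.71 (SE 0.49, adjusted p = 0.0672), with 0.79 without combination replicate 2 and 2.21 (adjusted p = 0.0243) without combination replicate 1. A second annotated transcript, 9930024M15Rik, overlaps Sesn1 on the same strand, and AC167363.2 overlaps Cdkn1a on the other strand. The sources used here do not say whether reads were counted by strand, so reads of these pairs cannot be told apart.

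Aen, Zmat3 and Phlda3 passed in none of the 8 comparisons. Aen encodes a nuclease that promotes apoptosis, and had 5.47 and 3.13 CPM in the combination libraries, 5.66 and 3.14 CPM in the JQ1 libraries, 1.40 and 1.60 CPM in the anti-PD-1 libraries, and 2.14 and 2.52 CPM in the vehicle libraries. Like Mdm2, and like no other of the 10, it was higher in all 4 libraries with JQ1 than in all 4 without it, and 10.2% of all genes were so placed. Its log2 difference for JQ1 over both backgrounds was 1.19 (SE 0.37, adjusted p = 0.067), which did not pass. Zmat3, an RNA-binding zinc finger protein, had 12.2 and 5.60 CPM in the combination libraries, 10.1 and 13.1 CPM in the JQ1 libraries, 6.43 and 5.35 CPM in the anti-PD-1 libraries, and 7.10 and 6.77 CPM in the vehicle libraries. Phlda3, which competes with AKT for membrane lipids, had 3.79 and 5.44 CPM in the combination libraries, 5.66 and 2.18 CPM in the JQ1 libraries, 4.96 and 2.91 CPM in the anti-PD-1 libraries, and 2.60 and 3.61 CPM in the vehicle libraries. For the combination against vehicle the log2 difference was 0.31 for Zmat3 (SE 0.43) and 0.60 for Phlda3 (SE 0.56).

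**Figure D2:**
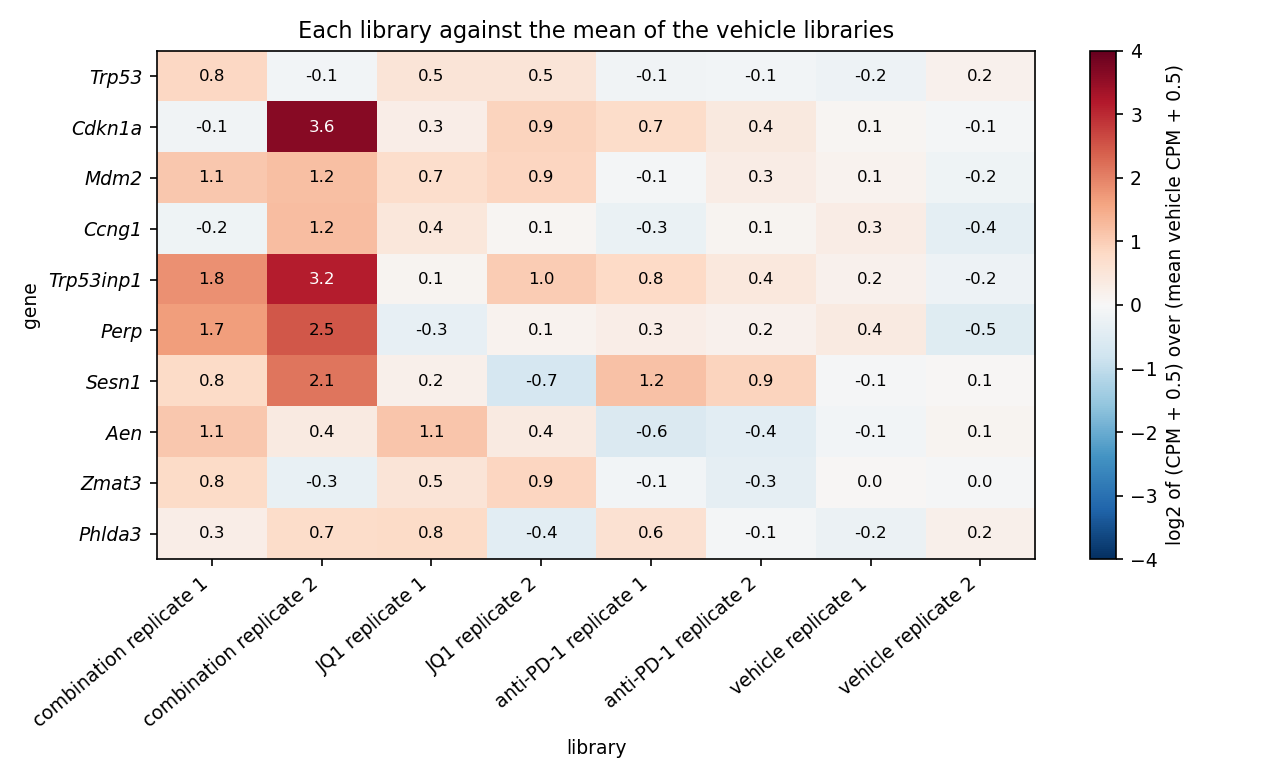
Log2 ratio of each library to the mean of the vehicle libraries for the 10 genes, with 0.5 CPM added to each level, as colour and number. Columns run from combination replicate 1 to vehicle replicate 2; Cdkn1a is at 3.65 in combination replicate 2 and at -0.13 in combination replicate 1, while Mdm2 is at 1.07 and 1.20 in the same libraries.

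Across the 10 genes, all 10 log2 differences for the combination against vehicle were above 0, with a median of 1.003, against a median of 0.07 and 52.4% above 0 over all genes tested. Without combination replicate 1, and likewise without combination replicate 2, 8 of the 10 remained above 0. In 6 of the 10 both combination libraries were above both vehicle libraries, which held for 29.5% of all genes. Before adjustment 5 of the 10 were under 0.05 (Cdkn1a, Mdm2, Perp, Sesn1 and Trp53inp1), against 27.3% of all genes, and DESeq2 with its own adjustment called these 5 among 1652 genes. For JQ1 against vehicle no gene of the 10 and none of the 14085 was called (0%). Before adjustment 1427 genes, or 10.1%, were under 0.05, and 1 of the 10, Mdm2, was among them. DESeq2 called 80 genes there, and none of the 10. In 5 of the 10 both JQ1 libraries were above both vehicle libraries, against 26.3% of all genes. For anti-PD-1 against vehicle none of the 14085 was called either (0%), and 278, or 1.97%, were under 0.05 before adjustment, with Sesn1 as the 1 of the 10 (log2 difference 1.10, SE 0.48). DESeq2 called 11 genes, and none of the 10. In 3 of the 10 both antibody libraries were above vehicle, against 14.4% of all genes, and in 2 both were below, against 16%. The combination, JQ1 and anti-PD-1 comparisons share the same vehicle libraries, so their values are given side by side and not as separate evidence.

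**Figure D3:**
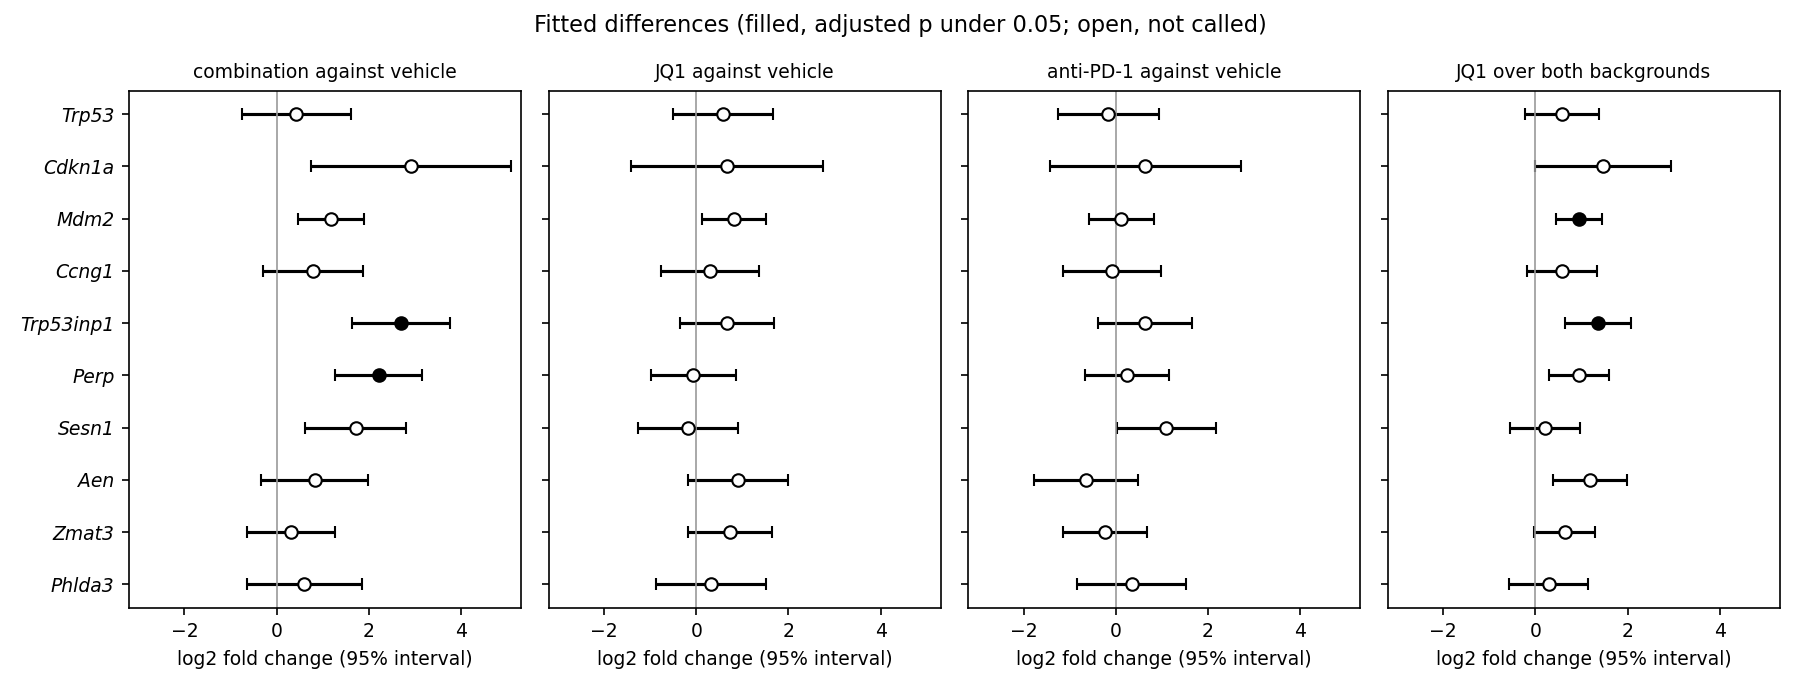
Log2 fold changes with 95% intervals for the 10 genes in 4 comparisons: 3 with vehicle, and JQ1 over both backgrounds. Filled points passed the threshold: Trp53inp1 and Perp when the combination is set against vehicle, and Trp53inp1 and Mdm2 when JQ1 is taken over both backgrounds, while the interval of Trp53 crosses 0 in each panel.

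For JQ1 over both backgrounds 2 of the 10 were called, Mdm2 and Trp53inp1, against 8.28% of all genes in either direction and 4.22% that rose. Trp53inp1 rose by 1.36 on the log2 scale (SE 0.32, adjusted p = 0.0374). Its groups overlapped, since JQ1 replicate 1 at 15.4 CPM was below both anti-PD-1 libraries. The call was lost when combination replicate 2, JQ1 replicate 2, or any 1 anti-PD-1 or vehicle library was left out. It was also lost with limma trend and with the ribosomal RNA share in the fit. Over all alternatives the difference ran from 0.93 to 1.61. Perp had a difference of 0.95 (SE 0.30, adjusted p = 0.0675) and Trp53 of 0.58 (SE 0.36, adjusted p = 0.286). For anti-PD-1 over both backgrounds none of the 10 was called, against 0.0142% of all genes. Before adjustment Perp, Sesn1 and Trp53inp1 were under 0.05, against 10.1% of all genes, and DESeq2 called these 3 among 202 genes of 14085. The combination against anti-PD-1 called 2 of the 10, against 4.23% of all genes: Trp53inp1 at 2.06 (SE 0.47, adjusted p = 0.0447) and Perp at 1.97 (SE 0.42, adjusted p = 0.0393). Both were lost without combination replicate 2, without either anti-PD-1 library, and without either vehicle library. Both were also lost with only the libraries compared and with the ribosomal RNA share in the fit. Trp53inp1 was further lost with limma trend, and Perp with a sex term.

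The combination against JQ1 called none of the 10, against 0.0213% of all genes. Before adjustment 4 of the 10 were under 0.05, against 14.1% of all genes, and DESeq2 called 3 of them, Perp, Sesn1 and Trp53inp1, among 409 genes of 14085. Its largest differences among the 10 were 2.28 for Perp (SE 0.43, adjusted p = 0.104), 2.24 for Cdkn1a (SE 0.92, adjusted p = 0.34) and 2.02 for Trp53inp1 (SE 0.47, adjusted p = 0.129). Without combination replicate 2 these were 1.78 for Perp, -0.83 for Cdkn1a and 1.17 for Trp53inp1, and without combination replicate 1 the Cdkn1a value was 3.11. The interaction, which asks whether JQ1 differs with and without the antibody, called none of the 10 and none of all genes (0%). Before adjustment 881 genes, or 6.25%, were under 0.05, with Perp as the 1 of the 10 (log2 difference 2.03, SE 0.59). The adjusted p of Perp was 0.745, and DESeq2 called 22 genes but none of the 10. A departure from the sum of the 2 treatments was not shown for any of the 10.

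**Figure D4:**
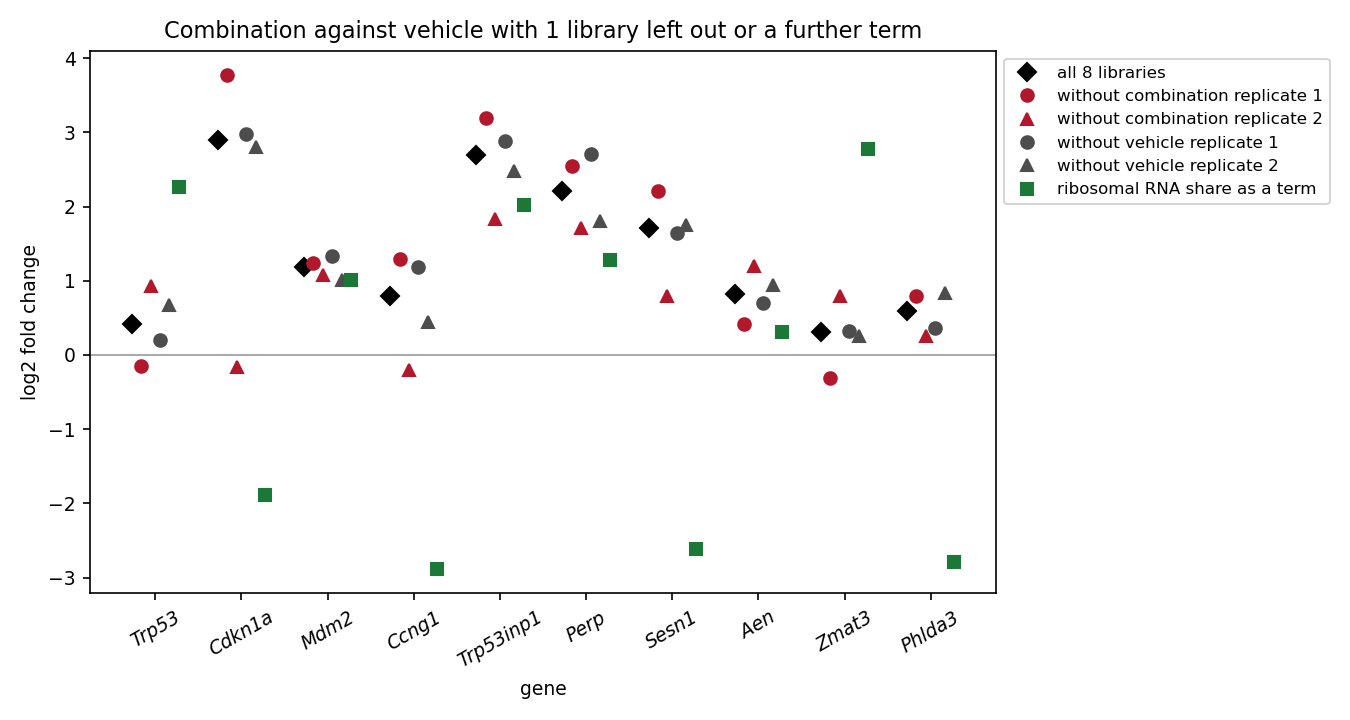
Log2 fold changes of the 10 genes for the combination against vehicle with all 8 libraries, with each combination or vehicle library left out, and with the ribosomal RNA share in the fit. Mdm2 stays between 1.01 and 1.33, whereas Cdkn1a runs from -1.88 (ribosomal RNA share in the fit) to 3.77 without combination replicate 1.

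Other genes of the pathway were taken as 3 lists: further p53 targets, regulators and relatives of p53, and cell cycle genes that p53 lowers through p21. Of 33 further targets 32 were tested. None was called for the combination against vehicle, against 4.8% of all genes. There 20 were above 0 and 12 below with a median of 0.40, against 52.4% above 0 and a median of 0.07 over all genes. Before adjustment 14 of the 32 were under 0.05, against 27.3% of all genes. DESeq2 called 5, among them the 3 that follow, and 1652 of all 14085 genes. The smallest p-values were those of Pmaip1, which encodes the BH3 protein NOXA, Fas, a death receptor, and Epha2, a receptor kinase. Pmaip1 had 1.26 and 8.90 CPM in the combination libraries, against 0.23 and 0.63 CPM in the vehicle libraries (log2 3.59, SE 0.92, adjusted p = 0.0528). The difference of Pmaip1 was 1.47 without combination replicate 2, 4.29 without combination replicate 1, where it passed the test, and -2.14 with the ribosomal RNA share in the fit. Fas had 4.63 and 4.61 CPM in the combination libraries, against 1.30 and 0.92 CPM in the vehicle libraries (log2 2.06, SE 0.55, adjusted p = 0.0561). Epha2 was lower in the combination, at log2 -1.08 (SE 0.29, adjusted p = 0.0565). For JQ1 over both backgrounds 1 of the 32 was called, against 8.28% of all genes in either direction. This was Ei24, an endoplasmic reticulum protein, which fell by 0.74 on the log2 scale (SE 0.19, adjusted p = 0.0428). It lost that call without any 1 library other than combination replicate 2, with a sex term and with the ribosomal RNA share in the fit. Spata18 had no count in either vehicle library and 7 and 1 in the combination libraries. Against a floor of 3 counts over the vehicle group, its level in the combination was 9.64-fold higher. This value takes no account of counting error, and 7 of the Spata18 reads came from combination replicate 1, the shallowest library. With it in place of the fitted value the median of the list stayed at 0.40.

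Of 16 regulators and relatives 15 were matched in the table and 13 tested. Rchy1, which encodes PIRH2, another ubiquitin ligase that degrades p53 and is also induced by it, had 13.9 and 23.2 CPM in the combination libraries, 7.97 and 7.06 CPM in the JQ1 libraries, 4.68 and 5.63 CPM in the anti-PD-1 libraries, and 5.35 and 4.82 CPM in the vehicle libraries. All 4 libraries with JQ1 were above the 4 without it, as for 10.2% of all genes. Rchy1 rose by 1.89 in the combination against vehicle (SE 0.38, adjusted p = 0.0327) and by 1.22 with JQ1 over both backgrounds (SE 0.27, adjusted p = 0.0304). Both calls were lost without combination replicate 2, without anti-PD-1 replicate 2 and without either vehicle library. The first was also lost with only the libraries compared (adjusted p = 0.0543), and the second without anti-PD-1 replicate 1 or either JQ1 library. With the ribosomal RNA share in the fit both were lost, at differences of 0.14 and 0.10. Usp7, the protease that removes ubiquitin from MDM2 and p53, fell for JQ1 over both backgrounds by 0.75 (SE 0.19, adjusted p = 0.0401). It had 213 and 138 CPM in the combination libraries and 228 and 228 CPM in the JQ1 libraries, against 336 and 333 CPM in the anti-PD-1 libraries and 336 and 339 CPM in the vehicle libraries. Its call was lost without any 1 library other than combination replicate 1, with upper-quartile factors (adjusted p = 0.0671), with a mean count of at least 50 (0.0572), and with the ribosomal RNA share in the fit, where the difference was -0.06. Usp7 differed by -0.95 in the combination against vehicle (SE 0.27, adjusted p = 0.0624), and by 0.11 with that share in the fit. The other 11 tested regulators were not called in either comparison. The list had medians of -0.34 for JQ1 over both backgrounds and -0.36 for the combination against vehicle. Over all genes, the medians were 0.06 and 0.07, and 8.28% and 4.8% were called.

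Of 14 cell cycle genes 11 were tested. For the combination against vehicle 10 of the 11 log2 differences were below 0, with a median of -1.23, and 1 was called. Over all genes tested 52.4% were above 0, the median was 0.07 and 4.8% were called. Plk1, a kinase of mitosis, had 0.42 and 0.33 CPM in the combination libraries, 1.47 and 1.31 CPM in the JQ1 libraries, 3.84 and 1.97 CPM in the anti-PD-1 libraries, and 4.20 and 4.82 CPM in the vehicle libraries. It fell in the combination against vehicle (log2 -3.61, SE 0.71, adjusted p = 0.0309) and with JQ1 over both backgrounds (log2 -2.34, SE 0.44, adjusted p = 0.022). The combination libraries held 3 Plk1 reads in all, and the ratio of summed counts to vehicle was 0.078 with a 95% counting interval from 0.0159 to 0.233. The first call was lost without combination replicate 2 (adjusted p = 0.14) and without either vehicle library (0.145 and 0.184), with a sex term (0.0503), with limma voom (0.0795) and with the ribosomal RNA share in the fit (0.763). The second was lost with that share in the fit (0.703) and without combination replicate 2, anti-PD-1 replicate 1 or either vehicle library (0.0598 to 0.101). Top2a, a topoisomerase of dividing cells, had a log2 difference of -2.31 in the combination against vehicle (SE 0.65, adjusted p = 0.0715). It was -3.85 without combination replicate 2 and -1.73 without combination replicate 1.

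**Figure D5:**
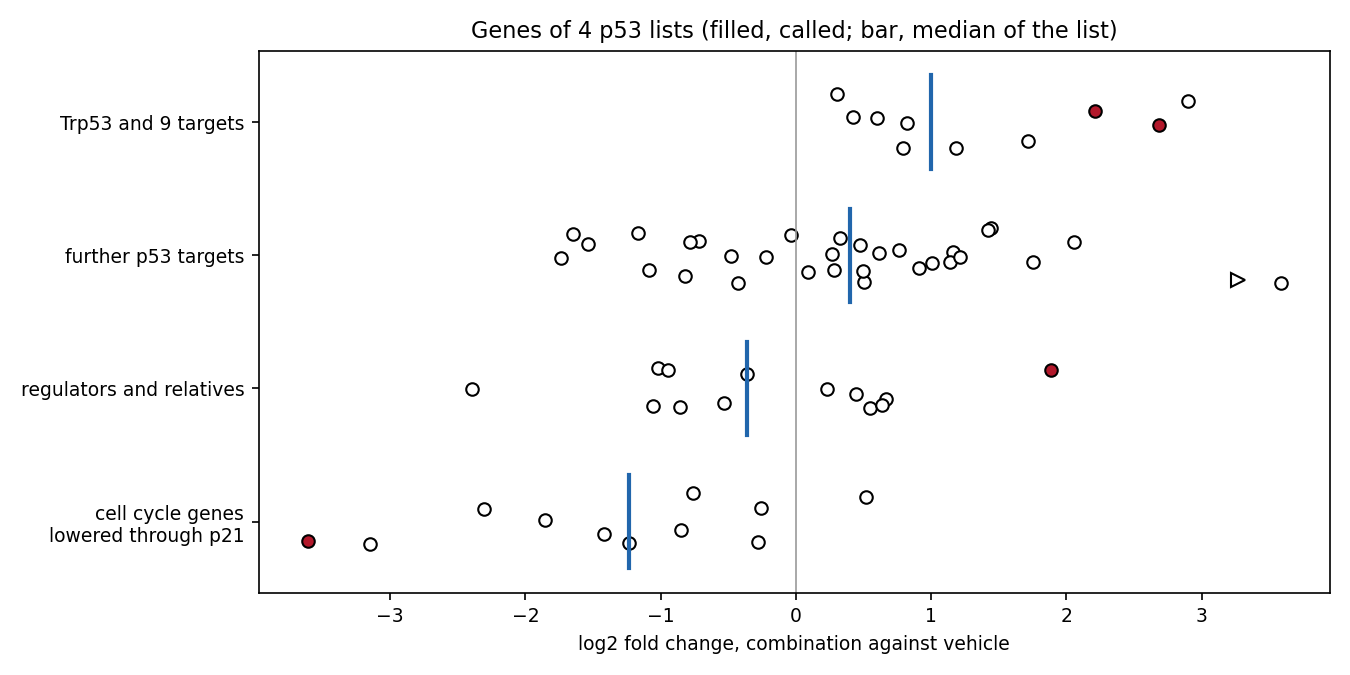
Log2 fold change for the combination against vehicle of every tested gene in the 10-gene set and the 3 further lists, with the median of each list as a bar. Filled points passed the threshold, and the open triangle is Spata18 at 3.27, its log2 ratio with a floor of 3 counts for vehicle. The list medians are 1.003 for the 10 genes, 0.40, -0.36 and -1.23.

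Cell type markers also differed between the groups. Summed over 7 markers, tumour epithelium had 1789 and 1646 CPM in the combination libraries, 2980 and 2283 CPM in the JQ1 libraries, 2492 and 3005 CPM in the anti-PD-1 libraries, and 3465 and 2857 CPM in the vehicle libraries. Nkx2-1, the lung lineage factor, fell in the combination against vehicle by 1.63 on the log2 scale (SE 0.34, adjusted p = 0.0327). The keratins Krt8 and Krt19 were also lower, at means of 374 and 257 CPM against 567 and 421 CPM, and were not called. The 4 others had positive differences that did not pass. These were 0.80 for Cdh1 and 1.07 for Epcam, proteins of epithelial junctions and surfaces, and 1.01 for the keratin Krt18. Cldn4 had a mean of 18.3 CPM against 7.62 CPM in vehicle. Summed over 5 markers, airway cells had 580 and 289 CPM in the combination libraries, 460 and 168 CPM in the JQ1 libraries, 119 and 52.2 CPM in the anti-PD-1 libraries, and 35.1 and 11.8 CPM in the vehicle libraries. Endothelial markers summed to 154 and 163 CPM in the combination libraries, against 71.3 and 91.0 CPM in the vehicle libraries, and alveolar type 2 markers to 6304 and 9151 CPM, against 7207 and 4370 CPM. Fibroblast markers summed to 448 and 456 CPM in the combination libraries, against 1271 and 1034 CPM in the vehicle libraries, muscle markers to 138 and 67.1 CPM, against 530 and 386 CPM, and neutrophil markers to 9.26 and 2.80 CPM, against 1.68 and 1.32 CPM. Of the 6 fibroblast markers Col1a1 fell (log2 -1.92, adjusted p = 0.0178), while Dcn rose (2.58, adjusted p = 0.0293) and Pdgfra rose (2.02, adjusted p = 0.0378). The heart myosin gene Myh6 fell (-2.18, adjusted p = 0.0279). Myh6 made up nearly all of the muscle sum: its vehicle mean was 452 CPM, and no other muscle marker there was above 2.69 CPM. Macrophage markers summed to 115 and 268 CPM in the combination libraries, against 135 and 170 CPM in the vehicle libraries. T cell markers summed to 0.23 to 2.03 CPM in every library, with 1 to 4 of the 5 at 0. The part of these differences, and of the ribosomal RNA share, in the higher Trp53inp1, Perp and Mdm2 levels was not tested.

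By pattern over the 8 libraries, the genes most like Trp53 were Ahctf1, Nap1l4, Inpp5e, Smim10l1 and Kcnq1ot1, with Pearson correlations of log2(CPM + 0.5) between 0.927 and 0.973. They were found among 6965 genes with a mean log2 CPM of at least 3, predicted genes left out. The genes most like Cdkn1a were Socs7, Brap, Txnip, Rexo1 and Suds3, at 0.943 to 0.955 among 6964 genes. The correlation with Cdkn1a was 0.208 for Socs7 and 0.351 for Brap once combination replicate 2 was left out, and 0.709 to 0.748 for the other 3. For the 5 genes like Trp53 it was 0.936 to 0.985 without that library, and 0.860 to 0.951 without combination replicate 1. These correlations describe 8 libraries that differ in depth and in ribosomal RNA share, and the genes were picked as the highest of all those searched.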

How the data were processed

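Per the labels' protocols, RNA of frozen tissue was captured with coding-region probes (TruSeq RNA Access). The submitters' processing notes name bcl2fastq, STAR, featureCounts, DESeq2, mm10 and GRCm38; the sources used here do not give versions, annotation or strand. The raw counts the authors deposited are whole numbers per gene symbol. The deposited normalized signal is those counts divided by a size factor per library: between 99.996% and 100% of values came out whole within 0.05 reads, and the test on these reads called 676 genes in the combination against vehicle, as on the raw counts.

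Treatments come from the labels, and replicate numbers follow accession order. No 2 libraries were copies: chi-square per degree of freedom was at least 13.7 within groups and at least 12.1 between groups. The 10 genes, lists and markers were chosen with earlier results of these data known. One fit of all 8 libraries used edgeR 4.0.16 (TMM, filterByExpr, robust glmQLFit, glmQLFTest) in R 4.3.3, with 8 contrasts and Benjamini-Hochberg over 14085 genes. Fold changes use a prior count of 0.125, and 95% intervals the fit's total degrees of freedom. The test was checked on simulated counts with a smaller spread than here and no outlying library. That check does not cover the spread between these libraries. Alternatives included DESeq2 1.42.0 and limma 3.58.1. From each list, called genes were named, otherwise up to 4 with the smallest p. Positions are 1-based.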

Additional observations from a re-analysis of the deposited data

How the results depend on the processing

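The number of the 10 genes called in the combination against vehicle was 2, and it became 4 with no filter on low counts, 4 with a mean count of at least 50 (which leaves 7 of the 10 tested), 5 with DESeq2, 1 with only the libraries compared, 0 with the ribosomal RNA share in the fit, and 0 to 4 with each library left out in turn. For JQ1 over both backgrounds it was 2, and became 4 with DESeq2, 3 with no filter, 3 with a mean count of at least 50, 3 with upper-quartile factors, 1 with limma trend, 1 with a sex term, 0 with the ribosomal RNA term, and 0 to 4 with libraries left out. For anti-PD-1 over both backgrounds it was 0, and became 3 with no filter, 3 with DESeq2, and 0 to 1 with libraries left out. For the combination against anti-PD-1 it was 2, and became 3 with DESeq2, 3 with a mean count of at least 50, 1 with limma trend, 1 with a sex term, 0 with only the libraries compared, 0 with the ribosomal RNA term, and 0 to 3 with libraries left out. For the combination against JQ1 it was 0, and became 3 with no filter, 3 with DESeq2, and 0 to 4 with libraries left out. The counts for JQ1 against vehicle, anti-PD-1 against vehicle and the interaction were 0 under each alternative run. The lists varied likewise: further targets had 0 to 6 calls over all alternatives in either of the 2 comparisons given, regulators 0 to 5 and cell cycle genes 0 to 2. The cause was not tested.

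Over all genes, the 676 calls of the combination against vehicle became 1652 with DESeq2, 1992 with no filter, 339 with a sex term, 245 with only the libraries compared, 2 with the ribosomal RNA term, 15 without combination replicate 2, 19 without vehicle replicate 1 and 7 without vehicle replicate 2, and 1115 without combination replicate 1. With DESeq2 and with no filter (26426 genes tested), the calls over all genes were 2128 and 2527 for JQ1 over both backgrounds, 202 and 426 for anti-PD-1 over both, 1556 and 1920 for the combination against anti-PD-1, and 409 and 672 for the combination against JQ1. In the combination against vehicle, 189 of 197 values of the 10 genes under alternatives were above 0. The 8 others were Trp53 (-0.16) and Zmat3 (-0.31) without combination replicate 1, Cdkn1a (-0.17) and Ccng1 (-0.20) without combination replicate 2, and, with the ribosomal RNA term, Cdkn1a (-1.88), Ccng1 (-2.88), Sesn1 (-2.62) and Phlda3 (-2.79). The 197 values are not independent, since the alternatives reuse the same libraries. Reads recovered from the normalized signal repeat the raw counts, so their values could not differ from the main fit. No paired analysis was possible because replicate numbers were given in accession order and do not pair libraries. Depth limits values in combination replicate 1, where Phlda3 had 9 reads, Trp53 and Cdkn1a 11 each, Aen 13 and Ccng1 16.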
